A study of Mus musculus with 2 samples.

Results

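The mitochondrial biogenesis regulators were described here as a fixed list of 10 genes, chosen by name as known regulators and not for their values. Earlier results of these data were known when the list was made. The list holds the coactivators Ppargc1a and Ppargc1b, the transcription factors Esrra, Nrf1 and Gabpa, the mitochondrial transcription genes Tfam, Tfb2m and Polrmt, and the mitochondrial DNA replication genes Polg and Twnk. Of 14870 genes with an assembled locus in at least 1 library, 9 were members of this list, and Ppargc1a had no locus in either library. All 9 had a TPM (an abundance per transcript length, scaled to the library) of at least 1 in at least 1 library, as did 13719 genes in all.

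RNA was sequenced from cultured bone marrow cells of WT mice, as 1 library from cells given M-CSF (M) and 1 library from cells given M-CSF and RANKL (MR). M-CSF is the cytokine that keeps monocyte and macrophage precursors alive and dividing, and RANKL is the cytokine that turns these precursors into osteoclasts, the multinucleated cells that resorb bone. The labels describe a culture with M-CSF for 2 days and RANKL with M-CSF for the next 2 days, whereas the study's culture method gives a longer time with RANKL, and the day on which RNA was taken is not named. Both libraries share the WT genotype and M-CSF, and the number of mice or wells behind each is not given in the sources used here. With 1 library per condition there is no replicate check, so that each value describes these 2 libraries and no p-value was computed.

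Most mitochondrial proteins are encoded in the nucleus, and their genes are switched on by a small set of transcription factors, of which nuclear respiratory factor 1 (Nrf1), GA-binding protein (Gabpa with a beta subunit) and the estrogen-related receptors are the best known. Coactivators of the PGC-1 family, to which Ppargc1a and Ppargc1b belong, bind these factors and raise the transcription of their targets. Among the targets are Tfam, Tfb2m and Polrmt, which transcribe the mitochondrial genome, and Polg and Twnk, which copy it. Osteoclasts are rich in mitochondria, and Ppargc1b is known as the PGC-1 coactivator that is raised during their formation.

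The promoters of 5 members are printed because they hold the letters of a motif that Nrf1 or GA-binding protein is known to bind. RefSeq promoter windows of 300 bases (250 before and 50 after the start site, on GRCm38.p6) were searched for 9 of the 10 members, in 11 windows. No window of Ppargc1b was searched, so that the counts below say nothing about its promoter. The 4 motifs below were searched as exact letters on both strands. The core of the NRF1 site (GCGCATGC) was in 3 of 11 windows and in 2.71% of 32851 windows in all. The ETS-type site bound by GABP (ACTTCCGG) was in 3 of 11 windows and in 3.89% of all. The estrogen-related receptor element (TCAAGGTCA) and the cyclic AMP response element (TGACGTCA) were in none of the member windows, and in 0.423% and 1.79% of all. The absence of a match says only that these letters were not in the window.

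The windows with the NRF1 core, marked in capitals on either strand, were those of Esrra (chr19:6921759-6922058, minus strand), Tfb2m (chr1:179546227-179546526, minus strand) and Polrmt (chr10:79746532-79746831, minus strand). Each is read 5′ to 3′ on the strand of the gene.
Esrra: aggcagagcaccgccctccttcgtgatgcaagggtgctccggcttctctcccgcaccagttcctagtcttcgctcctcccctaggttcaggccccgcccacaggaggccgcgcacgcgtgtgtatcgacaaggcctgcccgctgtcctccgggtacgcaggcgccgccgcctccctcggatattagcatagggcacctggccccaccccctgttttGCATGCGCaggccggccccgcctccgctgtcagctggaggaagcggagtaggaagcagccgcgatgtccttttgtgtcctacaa
Tfb2m: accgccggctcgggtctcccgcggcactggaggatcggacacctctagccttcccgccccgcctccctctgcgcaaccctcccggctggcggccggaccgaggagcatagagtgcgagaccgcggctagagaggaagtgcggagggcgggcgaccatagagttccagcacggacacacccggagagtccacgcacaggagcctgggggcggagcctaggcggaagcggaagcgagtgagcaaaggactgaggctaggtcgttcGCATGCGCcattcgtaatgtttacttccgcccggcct
Polrmt: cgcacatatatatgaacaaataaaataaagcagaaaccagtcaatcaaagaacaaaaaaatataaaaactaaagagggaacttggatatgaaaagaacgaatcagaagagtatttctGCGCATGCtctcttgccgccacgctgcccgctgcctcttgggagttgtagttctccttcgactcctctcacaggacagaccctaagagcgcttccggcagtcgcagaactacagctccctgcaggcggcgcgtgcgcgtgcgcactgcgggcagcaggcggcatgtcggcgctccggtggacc
The core lay 34 to 27 bases before the start site in Esrra, 13 to 20 bases after it in Tfb2m and 133 to 126 bases before it in Polrmt.

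The ETS-type site, again in capitals on either strand, was in the windows of Tfam (chr10:71237995-71238294, minus strand) and Polg (chr7:79466224-79466523, minus strand), and in the second of the Twnk windows, which is not printed.
Tfam: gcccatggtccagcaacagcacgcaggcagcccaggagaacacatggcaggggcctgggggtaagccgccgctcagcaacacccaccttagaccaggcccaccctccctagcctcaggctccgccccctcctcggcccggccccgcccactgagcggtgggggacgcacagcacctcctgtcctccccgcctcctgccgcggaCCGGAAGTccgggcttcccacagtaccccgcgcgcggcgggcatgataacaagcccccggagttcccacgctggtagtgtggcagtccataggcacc
Polg: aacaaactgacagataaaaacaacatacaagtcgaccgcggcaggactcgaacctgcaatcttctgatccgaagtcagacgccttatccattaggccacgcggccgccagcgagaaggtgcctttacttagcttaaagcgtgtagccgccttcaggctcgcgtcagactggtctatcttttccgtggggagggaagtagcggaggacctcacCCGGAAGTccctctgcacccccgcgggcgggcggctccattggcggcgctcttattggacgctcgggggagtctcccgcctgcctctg
The site lay 47 to 40 bases before the start site in Tfam and 38 to 31 bases before it in Polg. In the Twnk window it lay 111 to 104 bases before the start site. For the 5 members whose windows are printed, the assembled loci began close to the start sites of these windows. The distance was 9 bases downstream in M and 7 in MR for Esrra, 31 and 25 for Tfb2m, 21 and 18 for Polrmt, and 0 and 59 for Polg. The Tfam locus began 6 bases upstream in M and 17 in MR. The Twnk locus of M began 1575 bases downstream of the start site of its window with the match.

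Values were taken from the loci that StringTie assembled from the reads, and each locus was counted for the GENCODE vM21 gene (GRCm38) whose exons it held most of. A ratio is the log2 of (TPM in MR + 1) over (TPM in M + 1). The depth was estimated from the tables at 3.63 Gb of aligned bases in M and 2.98 Gb in MR. The estimate for M is above the approximate yield of raw reads that the study gives for each sample. Each ratio is given with a 95% counting interval from the estimated number of read pairs (exact binomial), which covers counting error only, not differences from culture to culture.

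Of the 9 members with a locus, 3 had a log2 ratio above 1 (Ppargc1b, Esrra and Polrmt) and 1 a log2 ratio below -1 (Twnk, which had no locus in MR). Among all 13719 genes, 21.0% were above 1 and 13.2% below -1. Polrmt (1.03) and Esrra (1.09) lay just inside the threshold and Tfb2m (0.99) just outside it. The median log2 ratio was 0.80 over the 9 members and 0.89 over the 8 with a locus in both libraries, beside 0.20 over all genes. Of these 8, 7 lay above the median of all genes, and Nrf1 was the exception. Scaling by the median ratio between libraries moved the median of all genes to 0.03, a shift of -0.18, and left Ppargc1b as the only member above 1.

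**Figure D1:**
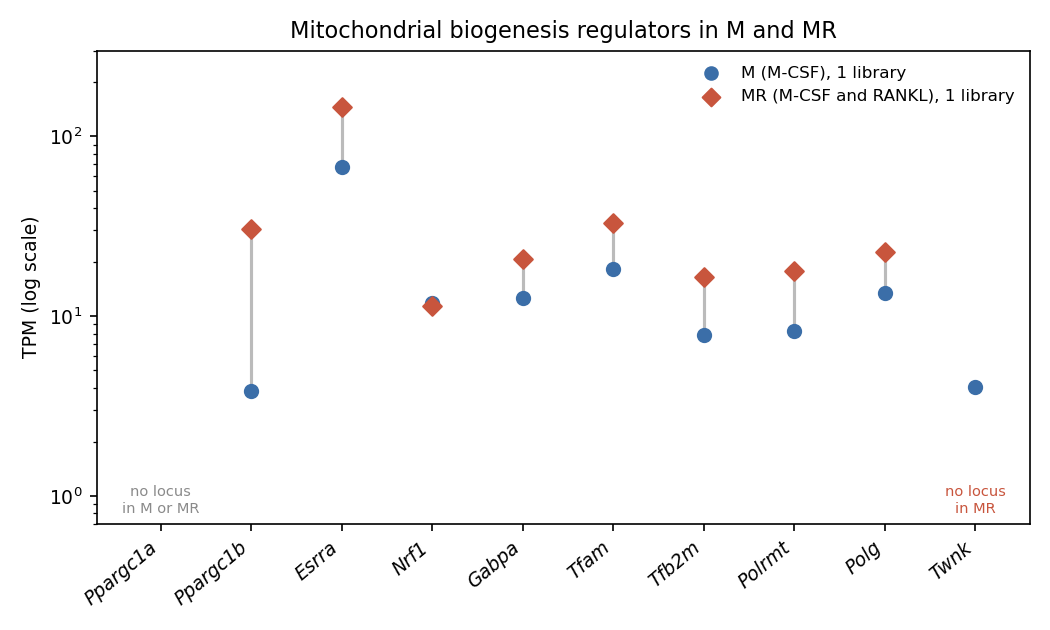
TPM of each member on a log axis, with a circle for the M library and a diamond for the MR library (1 library each, no error bars). The diamond lies above the circle for 7 members, Nrf1 is nearly level (11.9 and 11.4), and Ppargc1a in both libraries and Twnk in MR have no locus and so no point.

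Of the 2 coactivators, Ppargc1b was higher in MR and Ppargc1a had no assembled locus. Ppargc1a (PGC-1alpha, the coactivator best known from brown fat, liver and muscle; chr5:51454250-51567726, minus strand) lacked one in M and in MR, and no entry with a gene name lay over its GRCm38 extent either. Both tables list an entry named Ppargc1a at its GRCm39 position with a TPM of 0, but the entry named Esrra is listed at 0 in the same way. A missing locus says only that StringTie assembled none. The 5th percentile of the TPM of the listed loci, 0.148 in M and 0.239 in MR, shows how low listed values went.

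Ppargc1b (PGC-1beta, the family member named above for osteoclasts; chr18:61298136-61400431, minus strand) had TPM values of 3.85 (M) and 30.7 (MR). This was 7.98-fold higher in MR, with a log2 ratio of 2.71 (counting interval 2.41 to 3.01, from about 72 and 452 read pairs). The M value adds up 2 pieces of the gene, and the estimate of 72 pairs takes both at the full transcript length. That estimate is therefore too high, and the interval does not cover this. With the pieces averaged by exon bases, M was at 1.87 and the log2 ratio was 3.46, outside the interval. The ratio of 2.71 was higher than that of 96.7% of all genes and was the highest of the members. Ppargc1b was the lowest of the 9 members listed in M and the third of 8 in MR.

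The size of the Ppargc1b difference depended on how its loci were read. In M the gene was assembled in 2 pieces, a 3′ piece (61298277-61311443, TPM 1.83, 70.3% of the exon bases) and a 5′ piece (61315765-61400414, TPM 2.01, 20.5%). In MR it was 1 locus from 61291453 to 61400673, which held all exon bases and ran 6683 bases past the 3′ end in GENCODE vM21. RefSeq places this end at 61291445, so that the MR locus stopped 8 bases inside the RefSeq gene. The coverage listed for the MR locus, 20.2 reads per base, was 49.5% of the coverage its FPKM (fragments per kilobase, scaled to the library) corresponds to, whereas in M the share was 100%. Coverage per aligned Gb was therefore 3.80-fold higher in MR, with a log2 ratio of 1.48, and with the larger M piece alone the log2 TPM ratio was 3.48. Ppargc1b was above 1 in every one of these readings. The part of the split assembly in the ratio was not tested.

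**Figure D2:**
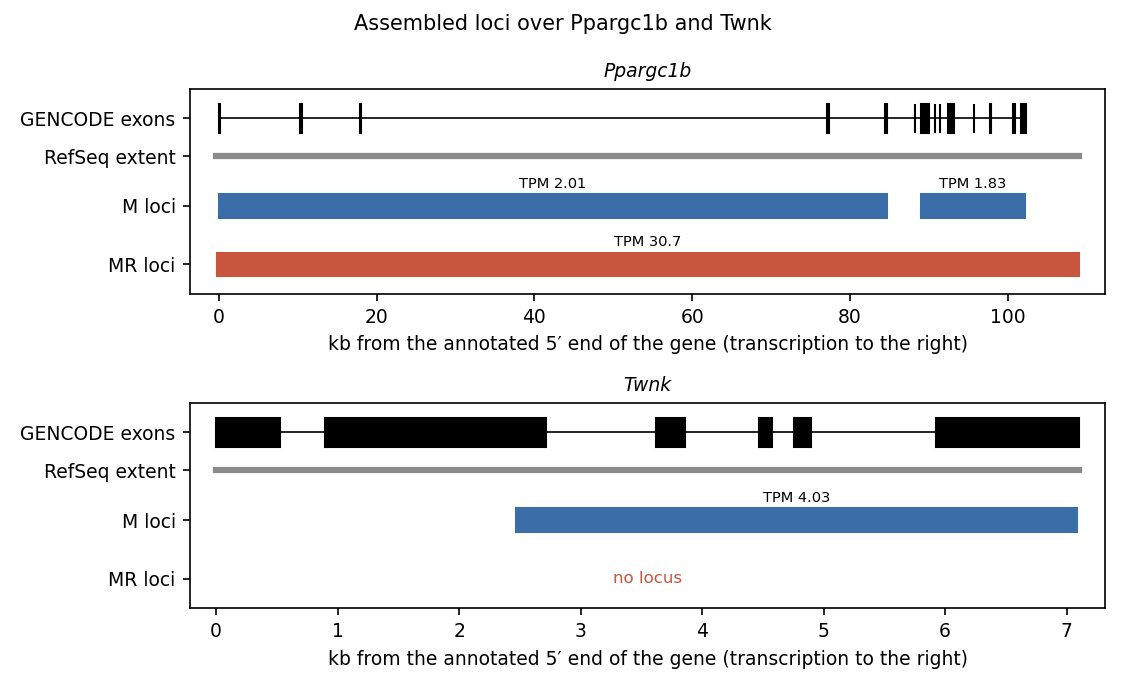
Extents of assembled loci over Ppargc1b (upper panel) and Twnk (lower panel), in kb from the annotated 5′ end, with GENCODE exons as black boxes and the RefSeq extent as a grey line. Ppargc1b is in 2 pieces in M (TPM 2.01 and 1.83) and in 1 locus in MR (TPM 30.7), and Twnk has a locus in M (TPM 4.03) and none in MR.

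Among the transcription factors, Esrra and Gabpa were higher in MR and Nrf1 was nearly level. Esrra (estrogen-related receptor alpha, an orphan nuclear receptor that PGC-1 coactivators bind; chr19:6910977-6921813, minus strand) had a TPM of 67.7 with M-CSF alone and 145.6 with RANKL. It was 2.15-fold higher in MR, with a log2 ratio of 1.09 (0.97 to 1.22), and was the most abundant member in both libraries. Its counting interval for the ratio held the threshold of 1, and scaling by the median ratio gave 0.90. Its locus covered 82.1% of the exon bases in each library. The locus of the opposite-strand neighbour Trmt112 reached over 38 further exon bases in M and 37 in MR.

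Nrf1 (nuclear respiratory factor 1, a factor that binds the promoters of many genes of the respiratory chain; chr6:30047988-30153458, plus strand) had TPM values of 11.9 (M) and 11.4 (MR). The log2 ratio was -0.06 (-0.47 to 0.35, about 102 and 77 read pairs), an interval that holds 0 and also the 0.20 of all genes. The estimate of pairs took a transcript of 1527 bases, whereas the locus held 10255 exon bases in M and 10194 in MR. The estimate may therefore be too low and the interval too wide. Over the other settings the ratio was between -0.24 and -0.06.

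Gabpa (the DNA-binding subunit of GA-binding protein; chr16:84834925-84863779, plus strand) had TPM values of 12.6 (M) and 20.8 (MR), with a log2 ratio of 0.68 (0.39 to 0.97). Its partners Gabpb1 and Gabpb2, the beta subunits that carry the activation domain, had log2 ratios of -0.09 and 0.66. Gabpa begins next to Atp5j, a subunit of ATP synthase on the opposite strand, with TPM values of 217 (M) and 410 (MR). The Atp5j locus reached over 8.04% of the Gabpa exon bases in M and 7.84% in MR, and whether the counting used strand is not given in the sources used here.

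The 3 genes that transcribe mitochondrial DNA were all higher in MR. Tfam (mitochondrial transcription factor A, which also packs mitochondrial DNA into nucleoids; chr10:71225464-71238280, minus strand) had TPM values of 18.4 (M) and 32.8 (MR). The log2 ratio was 0.80 (0.39 to 1.21, about 80 and 113 read pairs). Its loci stopped 2475 bases inside the annotated 3′ end in M and 2567 in MR and held 39.0% and 37.2% of the exon bases. These were 1733 bases in M and 1652 in MR, whereas the estimate of pairs took a transcript of 779 bases. The estimate may therefore be too low and the interval too wide.

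Tfb2m (mitochondrial transcription factor B2, which opens the promoter for the polymerase; chr1:179528055-179546267, minus strand) had TPM values of 7.84 (M) and 16.5 (MR). This was 2.11-fold higher in MR, with a log2 ratio of 0.99 (0.66 to 1.31). Polrmt (the mitochondrial RNA polymerase itself; chr10:79736123-79746581, minus strand) was at 8.25 in M and 17.9 in MR, 2.17-fold higher with a log2 ratio of 1.03 (0.77 to 1.29). The 2 genes were next to each other in the order of levels in both libraries, with overlapping counting intervals. Their intervals for the ratio each held the threshold of 1, so that neither side of it was settled by counting alone.

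Of the 2 replication genes, Polg was higher in MR and Twnk was listed in M alone. Polg (the catalytic subunit of mitochondrial DNA polymerase gamma; chr7:79446231-79466362, minus strand) had TPM values of 13.4 (M) and 22.8 (MR). The log2 ratio was 0.72 (0.58 to 0.87, about 590 and 791 read pairs), and scaling by the median ratio gave 0.54. The estimate of pairs took a transcript of 7837 bases, whereas the locus held 6888 exon bases in M and 6847 in MR. The estimate is therefore probably too high and the interval too narrow. The Polg locus held 64.1% of the exon bases in M and 63.7% in MR, and it ended 3765 and 3747 bases inside the annotated 3′ end. There the opposite-strand Fanci locus lay over 32.1% and 32.3% of the Polg exon bases. That locus was 57331 bases long in M and a piece of 5288 bases in MR. Summed over all its loci, Fanci had TPM values of 5.14 (M) and 12.0 (MR), a log2 ratio of 1.08. In M this was 1 locus, but the MR sum adds separate pieces, and the piece over Polg had a TPM of 3.49. The part of this split in the Fanci ratio was not tested.

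Twnk (Twinkle, the helicase that unwinds mitochondrial DNA; chr19:45005663-45012762, plus strand) had a TPM of 4.03 in M and no locus in MR, so that no fold is given. The M locus rested on about 49 read pairs. It ran from 45008133 to 45012746, began 2470 bases inside the annotated 5′ end and held 47.3% of the exon bases. An entry named Lzts2, at the position of that gene on the GRCm39 build, lay over all Twnk exon bases on the same strand, and its TPM was 0.631 (M) and 2.32 (MR). With such entries added, Twnk had a log2 value of -0.77 in place of -2.33. The missing MR locus is therefore no measurement of absence, and the part of the Lzts2 entry in it was not tested. Mrpl43, a mitochondrial ribosomal protein gene that begins next to Twnk on the opposite strand, was at 36.7 in M and 90.7 in MR.

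**Figure D3:**
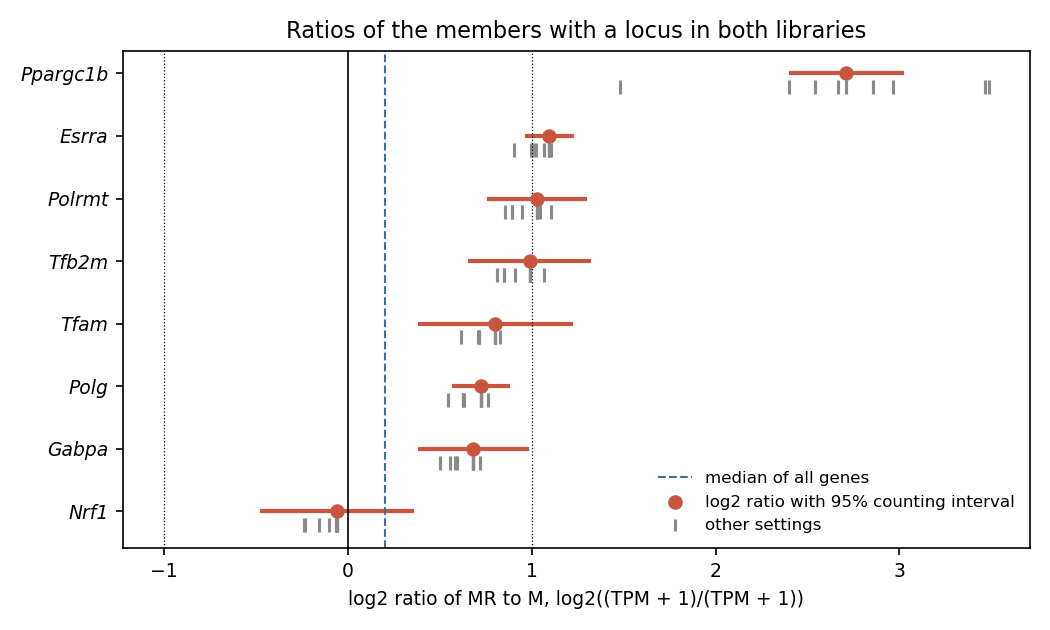
Log2 ratio of MR to M for the 8 members with a locus in both libraries, as a circle with its 95% counting interval, the values under other settings as grey ticks, and the median of all genes as a dashed line. Ppargc1b stands apart at 2.71 with ticks from 1.48 to 3.48, 6 members lie between 0.68 and 1.09, and the interval of Nrf1 crosses 0.

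The order of TPM levels in M was Esrra (67.7), Tfam (18.4), Polg, Gabpa, Nrf1, Polrmt, Tfb2m, Twnk and Ppargc1b (3.85). In MR it was Esrra (145.6), Tfam (32.8), Ppargc1b (30.7), Polg, Gabpa, Polrmt, Tfb2m and Nrf1 (11.4). Esrra was higher than the next gene by more than counting error in both libraries, with intervals of 63.2 to 72.4 against 14.6 to 22.9 for Tfam in M. In M the intervals of Polg, Gabpa and Nrf1 overlapped from each gene to the next. So did those of Polrmt and Tfb2m and those of Twnk and Ppargc1b. The Ppargc1b level in M adds up 2 pieces of the gene. Averaged by exon bases it was 1.87, below the Twnk interval of 2.98 to 5.32. In MR, Tfam (27.0 to 39.4) and Ppargc1b (27.9 to 33.7) overlapped, and so did each gene with the next from Polg down to Nrf1. In M, 84.3% of all genes had a lower TPM than Esrra and 24.8% a lower TPM than Ppargc1b. In MR these shares were 92.1% and 67.1%.

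Set beside the promoter windows, the 3 members with the NRF1 core had log2 ratios of 1.09 (Esrra), 1.03 (Polrmt) and 0.99 (Tfb2m). The members with the ETS-type site had 0.80 (Tfam) and 0.72 (Polg), with Twnk lacking a value in MR. Of the members with searched windows but no match, Gabpa had 0.68 and Nrf1 -0.06, and Ppargc1a had no locus. Ppargc1b had no searched window. The counting interval of Tfam, which may be too wide, overlapped those of all 3 members with the NRF1 core. That of Polg (0.58 to 0.87) overlapped those of Polrmt and Tfb2m but not that of Esrra (0.97 to 1.22). As the Polg interval is probably too narrow, its separation from Esrra is not settled. The windows were too few for a comparison of the motifs, and no test was made.

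**Figure D4:**
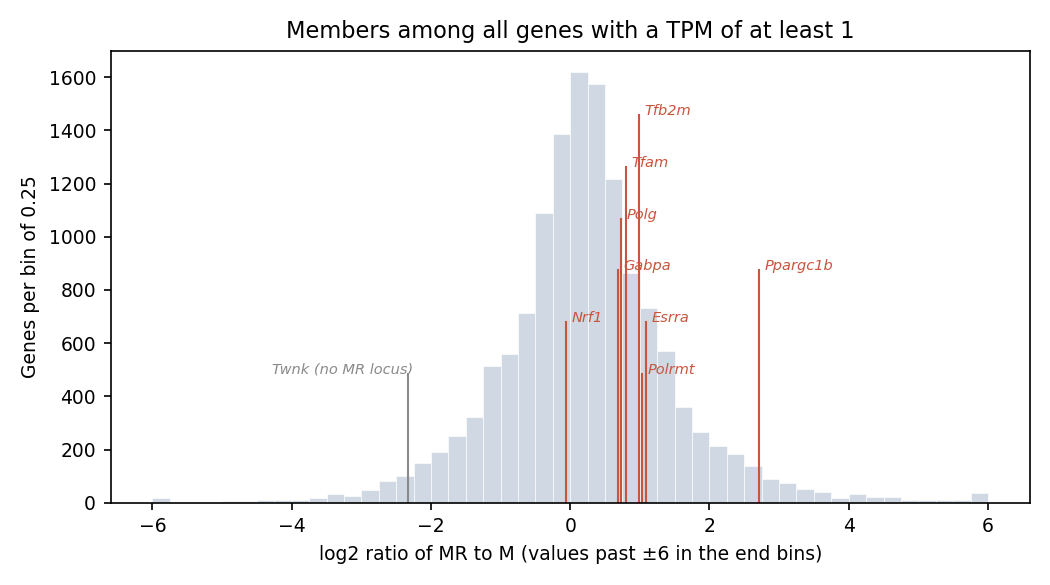
Number of genes per bin of 0.25 in log2 ratio over all 13719 genes, with vertical lines at the members and values past the axis in the end bins. Most members lie on the right shoulder of the distribution, Ppargc1b is far out at 2.71, and the grey line of Twnk at -2.33 stands for a gene with no MR locus.

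The wider pathway was read from 13 lists of 178 further genes, chosen with earlier results of these data known. Of these genes, 167 passed the TPM minimum, 5 had no locus and 6 were covered by a locus that was given to another gene. Of the 167, 55 (32.9%) had a log2 ratio above 1 and 4 (2.40%) below -1, with a median of 0.50. Over all 13719 genes the shares were 21.0% and 13.2% and the median 0.20. Under the median-of-ratios scaling 45 of the 167 were above 1 and 6 below -1, beside 2449 and 2182 of all genes.

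Among the coactivator partners and corepressors 2 of 15 were above 1 and 0 below -1, with a median of 0.17. Perm1, a PGC-1 and ERR-induced regulator first known from muscle, had TPM values of 4.16 (M) and 12.9 (MR), a log2 ratio of 1.43. Pprc1, the third PGC-1 family member, was at 12.4 and 15.5 (0.30). The median turned to -0.02 under the median-of-ratios scaling.

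Among the partner transcription factors 6 of 17 were above 1 and 3 below -1, the widest spread of the 13 lists. Myc, a growth-related factor that also acts on nuclear mitochondrial genes, was at 3.92 in M and 40.1 in MR (3.06). Rxrb, a retinoid X receptor, was at 31.8 and 90.6 (1.48). In the other direction, the fatty acid sensor Pparg was at 39.6 in M and 9.67 in MR (-1.93) and the retinoid X receptor Rxra at 42.0 and 12.5 (-1.67). Creb1, which acts upstream of Ppargc1a in other tissues, had a log2 ratio of 0.06. The other estrogen-related receptors, Esrrb and Esrrg, had no locus in either library.

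Of the upstream signalling genes 2 of 15 were above 1 and 0 below -1, with a median of 0.05 that was -0.13 under the median-of-ratios scaling. Prkag2, a regulatory subunit of AMP-activated kinase, was at 6.90 in M and 33.0 in MR (2.10). Sirt3, a mitochondrial deacetylase, was at 10.2 and 26.7 (1.31).

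The other genes of mitochondrial DNA transcription were few, and 2 of 6 were above 1, with a median of 0.64. These were Mterf2 (0.525 in M, 5.83 in MR) and Mterf1b (no locus in M, 1.69 in MR), both of low level and named after their values were seen. Tfb1m, the methyltransferase related to Tfb2m, was at 4.38 and 8.30 (0.79).

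In the list for mitochondrial DNA replication and the nucleoid 3 of 14 were above 1 and 0 below -1, and the median was 0.02 (-0.15 under the median-of-ratios scaling). Those 3 were the nuclease Endog (9.55 in M, 44.1 in MR, log2 ratio 2.10), the nucleoid-associated ATPase Atad3a (11.5 and 50.6, 2.04) and Poldip2 (23.6 and 78.5, 1.69). Polg2, the accessory subunit that holds Polg to DNA, was at 8.28 and 4.81 (-0.68), opposite in sign to Polg. None of the 10 nucleotide supply genes passed 1 in either direction, and their median was -0.35.

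Lists for the expression of mitochondrial genes and for protein handling lay higher. Of the RNA processing genes 8 of 17 were above 1 and 1 below -1 (median 0.79). Hsd17b10, a subunit of mitochondrial RNase P, was at 46.4 in M and 204 in MR (2.11), and Lrpprc, which keeps mitochondrial mRNAs stable, at 20.8 and 63.7 (1.57). Fastk (1.62) and Fastkd1 (1.54) belong to the same RNA-binding family. Of the translation factors 5 of 11 were above 1 and 0 below -1 (median 0.72), led by the elongation factors Gfm1 (21.8 and 89.1, 1.98) and Tufm (51.0 and 161, 1.64), with Taco1 at 1.25 and Tsfm at 1.21.

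Of the protein import genes 11 of 22 were above 1 and 0 below -1 (median 0.93). The intermembrane chaperone Timm10 was at 25.4 and 90.9 (1.80), the inner membrane channel Timm22 at 15.3 and 53.0 (1.73), the outer membrane channel Tomm40 at 42.6 and 137 (1.66), and Timm21 had a log2 ratio of 1.58. Of the chaperones and proteases 9 of 14 were above 1 and 0 below -1, and all 14 were above 0, with a median of 1.35. The chaperonin Hspd1 was at 86.2 in M and 377 in MR (2.11), the protease Afg3l2 at 29.2 and 111 (1.90), and the protease Lonp1, which degrades Tfam, at 28.2 and 107 (1.88). The prohibitin Phb2 was at 115 and 414 (1.84). Under the median-of-ratios scaling 8 of the 14 were above 1 and 13 above 0.

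Of the fusion and fission genes 3 of 9 were above 1 and 0 below -1 (median 0.94), namely Mtfp1 (1.48 and 10.6, 2.23), the fusion GTPase Mfn2 (28.2 and 74.7, 1.37) and the fission receptor Mff (47.0 and 95.7, 1.01). Of the mitophagy genes 1 of 10 was above 1 and 0 below -1 (median 0.29), and this was Bnip3 (17.5 and 38.3, 1.08). Of the outer membrane and cytochrome c genes 3 of 7 were above 1 and 0 below -1 (median 0.93). They were the channel Vdac1 (133 and 410, 1.62), Mtch2 (51.7 and 145, 1.47) and cytochrome c itself (Cycs, 214 and 468, 1.13).

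The 13 mRNAs that the mitochondrial genome encodes, the products of Polrmt and its factors, had a summed TPM of 11148 (M) and 46157 (MR). All 13 had a log2 ratio above 1, from 1.11 for mt-Co1 to 3.52 for mt-Nd3, with a median of 2.26. Under the median-of-ratios scaling 12 of the 13 were above 1 and the median was 2.06. Several of these genes overlap each other or lie opposite one another, so that single values are less certain than their sum.

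**Figure D5:**
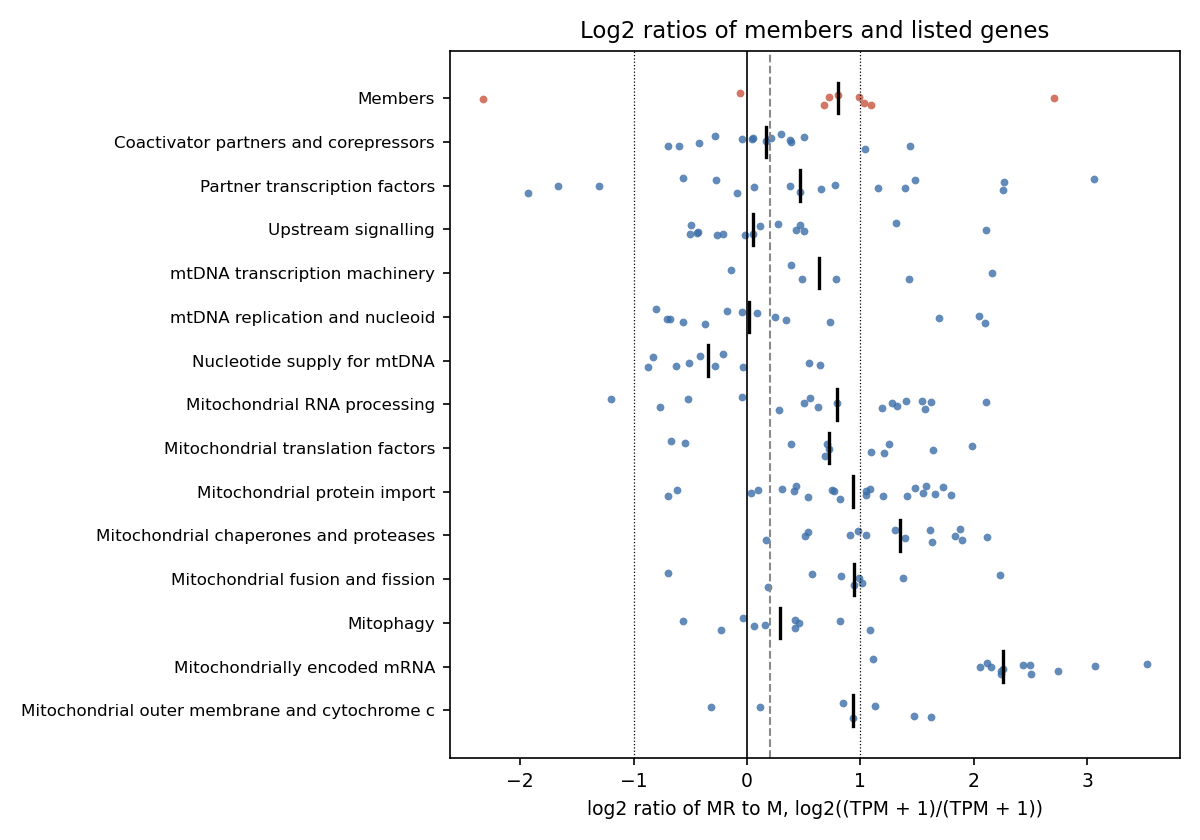
Log2 ratio of MR to M for each gene past the TPM minimum, by list, with a black line at each list's median, a dashed line at the median of all genes (0.20) and dotted lines at -1 and 1. The mitochondrially encoded mRNAs lie highest (median 2.26), chaperones and proteases next (1.35), and nucleotide supply lowest (-0.35), and the members are in the top row (median 0.80, with Twnk at -2.33 lacking an MR locus).

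Cell types were read from marker lists. All 10 osteoclast markers were higher in MR with log2 ratios above 1, and their summed TPM was 151.7 in M and 25318 in MR (Acp5 51.9 and 4947, Ctsk 53.1 and 12867, Nfatc1 25.5 and 325). The 8 macrophage markers summed to 21512 and 7967, with 4 below -1, Adgre1 at 681 and 148 and Csf1r at 697 and 872. Most of each sum was Lyz2 (16035 and 4535), which was read from a locus shared with another coding gene. The 9 neutrophil markers were present in both libraries and summed to 1417 and 966. S100a8 was at 495 and 278, S100a9 at 435 and 360 and Ngp at 178 and 148, and Camp, Ltf, Mpo, Mmp8 and Elane also reached a TPM of 10. The 8 cycling markers summed to 182 and 128. Stromal markers summed to 23.5 and 36.2, with Col3a1 at 4.48 and 14.1 and Col1a1 at 6.63 and 10.1. Dendritic, lymphoid, erythroid, and mast cell and basophil lists each summed to at most 12.0 in either library, and 4 of 7 erythroid, 3 of 7 lymphoid, 3 of 6 mast cell and basophil and 1 of 6 dendritic markers had no locus in either. In such bulk samples fewer cells of a type and less RNA per cell cannot be told apart, and the part of these other cells in the members' ratios was not tested.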

How the data were processed

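Total RNA of 2 bone marrow cultures was made into NEBNext Ultra libraries and sequenced by the authors as paired reads of 150 bases. They removed adaptors with Trim Galore, aligned with HISAT2 to mm10 and ran StringTie with the GENCODE vM27 annotation, and the tool versions are not given in the sources used here. Each deposited table lists per entry a coverage (reads per base, not scaled for depth), an FPKM and a TPM. The deposited TPM column was treated as a score, because its assembled loci alone sum to 1000000 and the entries with gene names add 87234 in M and 129264 in MR. Those entries carry GRCm39 positions and were not used for values.

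A locus was counted for the GENCODE vM21 gene that shared most exon bases with it (50 or more, compatible strand), which placed 15665 loci of M (95.4% of TPM) and 16523 of MR (96.9%). TPM was summed per gene. A locus that also held at least 50% of another coding gene was treated as shared. A gene had no value if, in a library, another gene's locus held at least 50% of its exon bases and it lacked its own. Ratios used a pseudocount of 1 and a minimum TPM of 1 in M or MR, with a log2 threshold of 1. Aligned bases were estimated from the commonest quotient of coverage and FPKM, at which 45.5% of entries with an FPKM above 5 lay in M and 48.5% in MR. The read pairs, intervals and coverage per aligned Gb rest on this estimate. Read pairs per gene were estimated from FPKM, the shortest complete coding transcript and 300 bases per pair, and gave exact binomial intervals for ratios and exact Poisson intervals for levels. PCR copies are not independent molecules, so these intervals cover counting error only.

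The members and lists were chosen with earlier results of these data known. Named genes are the members and, per list, up to 4 with the largest log2 ratio past 1 in size and a TPM of at least 10, besides genes named for their role or, where stated, after their values were seen. Assignment was tested on simulated data in which each gene had an unbroken locus over most of its extent in both libraries. Split, short or missing loci, such as those of Ppargc1b, Tfam and Twnk, were not simulated. The alternatives were a pseudocount of 0.1, FPKM, coverage per aligned Gb, TPM without mitochondrial and the 20 most abundant genes, median-of-ratios scaling (12174 genes), the largest locus only, the same strand only, other filters and a log2 threshold of 2. A mean over loci weighted by exon bases and the addition of gene-named entries were chosen after seeing the data. Scripts ran in Python 3.11.15 (scipy 1.17.1, matplotlib 3.10.9, pandas 2.3.3, numpy 2.4.6).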

Additional observations from a re-analysis of the deposited data

Results flagged for a closer look

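In all, 10 entries with gene names lay on the same strand over 6 members, and were set aside because their positions refer to GRCm39. Those given here are the 5, over 4 members, that held exon bases of the member, had a TPM of at least 1 in M or MR and were higher in MR than in M. The other 5 stayed below a TPM of 1 in both libraries, and of these the entry named Nrf1 was lower in MR (0.911 in M, 0.836 in MR). Over Ppargc1b the entry named Hmgxb3 had TPM values of 0.199 (M) and 4.34 (MR). Over Esrra the entry named Gpr137 had 5.26 and 9.25, and the entry named Kcnk4 had 3.53 and 6.59. Over Polrmt the entry named Med16 had 1.49 and 3.07. Over Twnk the entry named Lzts2 had 0.631 and 2.32. With all 10 added to the members' own values, Ppargc1b, Esrra and Polrmt stayed above a log2 ratio of 1 and Twnk moved from -2.33 to -0.77.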

How the results depend on the processing

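Of 106 values recomputed under other settings, 93 stayed within the counting interval or within 1.5 times the count, 13 moved and 0 changed the sign of a called value. Many of the 93 could not move, so that this tally does not measure robustness. Using the same strand only changed no member value. The largest locus only and the weighted mean could change only Ppargc1b, the member in 2 pieces. Gabpa, Tfam and Polg had no gene-named entry to add. Where a value had no counting interval of its own, as for Twnk, the median width of the members' intervals stood in (0.297 to each side). The 4 members past a 2-fold ratio (3 higher, 1 lower) became 2 (1 higher, 1 lower) under the median-of-ratios scaling, 2 without mitochondrial and the 20 most abundant genes, and 2 at a log2 threshold of 2. The scaling lowers all ratios by its construction and put Esrra at 0.90 and Polrmt at 0.85. The median over the members was between 0.62 and 0.89. Ppargc1b moved to 1.48 with coverage per aligned Gb, 2.40 with FPKM, 3.46 with the mean weighted by exon bases and 3.48 with the largest locus only. Twnk was between -5.37 with a pseudocount of 0.1 and -0.77 with gene-named entries added. The shares of all genes past the threshold that were higher in MR were 61.5% as reported, 52.9% with median-of-ratios scaling, 57.1% without mitochondrial and the 20 most abundant genes and 60.5% with coverage per aligned Gb. No replicate could be left out. No paired analysis was possible because there is 1 library per condition. Twnk in M had the lowest estimate of the members, about 49 read pairs, but the estimate for Ppargc1b in M (about 72) was too high.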
